A study of Homo sapiens with 32 samples.

Results

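The ATM inhibitor experiment in HEK293T cells comprised 8 of the 32 RNAseq libraries of the series, 4 from cells given the inhibitor (libraries 18 to 21) and 4 from cells given the vehicle DMSO (libraries 22 to 25). The libraries were chosen by their numbers, and no expression value entered the choice. HEK293T is a line derived from human embryonic kidney that carries the SV40 large T antigen, a viral protein that binds and disables p53. The inhibitor was KU-55933, which blocks the ATM kinase, given at 9 µM for 24 h, and cells then recovered for 48 h before harvest. GEO labels libraries 18 to 21 as an ATM knockout, whereas the study describes RNAseq of HEK293T cells for the inhibitor, so they are called ATM inhibitor libraries here. The study describes 4 independent repeats, and the labels do not say whether libraries came from separate cultures. If they did not, the p-values measure only technical spread. The labels give 8 libraries as HEK293T DMSO and do not tie any of them to a treatment. The use of libraries 22 to 25 as controls was taken as given.

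ATM is a kinase that is activated at DNA double-strand breaks and phosphorylates p53, CHK2 and histone H2AX, among many other substrates. Cells without ATM function repair breaks less well, and they also handle oxidative stress and damaged proteins poorly. An inhibitor of the kinase acts on the protein, so the ATM transcript itself need not change.

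The libraries held 2919274 to 3684965 counts on genes (median 3224732) with the inhibitor and 3343249 to 3991858 (median 3438563) with DMSO, so that 3 counts, the smallest number taken as detected, equalled 0.752 to 1.03 CPM (counts divided by the library's total on genes and put on a common scale, with TMM correction unless said otherwise). These limits cover counting error only. All 8 genes listed as markers of U2OS, the osteosarcoma line also used in the series, were lower in each of the 8 libraries than in any of the 8 U2OS camptothecin (CPT) and DMSO libraries. Of 6 genes listed as HEK293T markers, LIN28B, NEFM and PAX2 were above every U2OS library, SALL1 overlapped, and EPCAM and CDH2 were below every U2OS library, against the name of the list. Of the other libraries labelled HEK293T DMSO, 3 had 2404 to 4107 CPM of the U2OS marker CLU, scaled by library totals, so that their labels went against this marker. Library 17 had 29.9 CPM of CLU and 246.5 CPM of NEFM, so its label did not go against these markers, and it entered an alternative fit as a control.

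The arms did not separate on the main axis of variation. The first principal component of log2 CPM over 10279 genes held 32.7% of the variance, and the ATM inhibitor libraries 18 to 21 scored -19.98, -9.17, -7.87 and 16.2 on it, against 14.5, 6.49, 6.91 and -6.99 for the DMSO libraries 22 to 25. Library 21 thus lay with the DMSO libraries and library 25 with the inhibitor libraries. Correlations of log2 CPM between libraries had a median of 0.979 between the arms, 0.977 within the inhibitor arm and 0.983 within the DMSO arm.

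A small signal of genes typical of U2OS cells ran along the same axis. It was summed over 18 genes with at least 50 CPM in every U2OS library of the CPT experiment and no count in library 17, a rule that used none of the 8 libraries. The summed level was 0.956%, 1.01%, 1.01% and 2.65% of its mean in the U2OS libraries in libraries 18 to 21, and 2.97%, 1.82%, 1.56% and 0.910% in libraries 22 to 25. Among these genes, 16 had their highest value in library 21 or 22. The level of these genes was entered as a covariate in an alternative fit, chosen after seeing the data. Under it RPL26 had 0.18 in place of 0.39 on the log2 scale, COX20P1 0.87 in place of 1.07, HSP90AA1 0.28 in place of 0.37, MT-ATP6 0.48 in place of 0.58 and MT-TP -0.66 in place of -0.77. Not every gene moved toward 0, as GADD45A had -0.546 in place of -0.508 and STC2 -0.345 in place of -0.317.

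**Figure D1:**
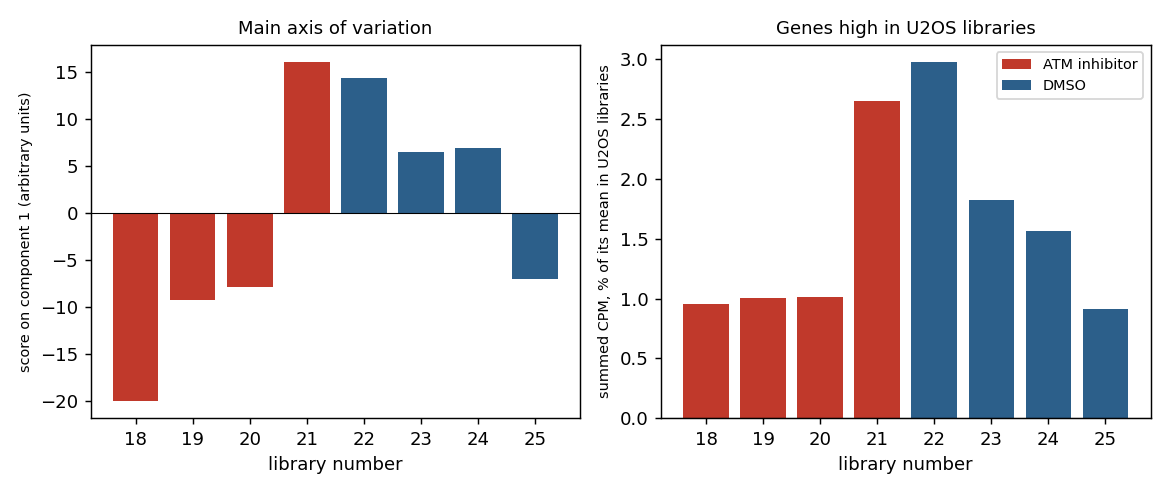
Score of each library on the first principal component (left, arbitrary units) and summed CPM of 18 genes high in U2OS libraries as a percent of their mean there (right); bars are single libraries, red for the ATM inhibitor and blue for DMSO. Library 21 stands at 16.2 and 2.65%, next to DMSO library 22 at 14.5 and 2.97%, and library 25 stands at -6.99 and 0.910%.

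Among single transcripts only RNU4ATAC passed the adjusted test, and for the more abundant genes the data bounded the change tightly. Of 18413 genes tested by the quasi-likelihood method of edgeR, with p-values adjusted after Benjamini and Hochberg, 0 passed an absolute log2 fold change over 1 with an adjusted p under 0.05. Without the cutoff on fold change 1 gene passed, or 0.00543%, and it was RNU4ATAC. An unadjusted p under 0.05 was found for 1019 genes, or 5.53%, of which 510 (2.77%) were higher and 509 (2.76%) lower with the inhibitor. DESeq2, an alternative tool, gave 0 genes past both cutoffs and 519 genes with an unadjusted p under 0.05. The 4 libraries of one arm all lay above the 4 of the other for 564 genes, or 3.06%, of which 301 (1.63%) were higher and 263 (1.43%) lower with the inhibitor.

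The count of genes past the cutoffs rested on library 21. Without it, of 18194 genes tested 14 passed both cutoffs and 97 passed the adjusted p alone. Of 87 genes recomputed under every alternative, 29 had an adjusted p under 0.05 without library 21. The 87 include the genes named for small p-values in these same libraries, so their share is not that of genes at large. RNU4ATAC, COX20P1 and MAGEA1 were among the 14, and the fold change of RNU4ATAC without library 21 was -1.08 on the log2 scale.

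The size of an observed difference that would pass was set by abundance, and a true change of that size could still be missed. For the 1958 genes at 100 CPM or more the median SE of the log2 fold change was 0.106. A difference of 0.22 (1.16-fold) would have sufficed there for an unadjusted p of 0.05, and one of 0.61 (1.52-fold) for that p divided by the number of genes tested. For 7538 genes at 10 to 100 CPM the median SE was 0.140, and those sizes were 0.28 (1.22-fold) and 0.80 (1.74-fold). For 5188 genes at 1 to 10 CPM they were 0.71 (1.63-fold) and 1.99 (3.96-fold), so that only large changes could have passed at this level.

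The 95% interval of the log2 fold change lay within ±1 for 99.9% of the genes at 100 CPM or more and within ±0.5 for 94.4% of them. At 10 to 100 CPM these shares were 99.7% and 76.4%, at 1 to 10 CPM 52.2% and 3.14%, and 0% of the 3729 genes below 1 CPM had an interval within ±1. Over all genes tested, 12179 (66.1%) were bounded within ±1 and 7772 (42.2%) within ±0.5.

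**Figure D2:**
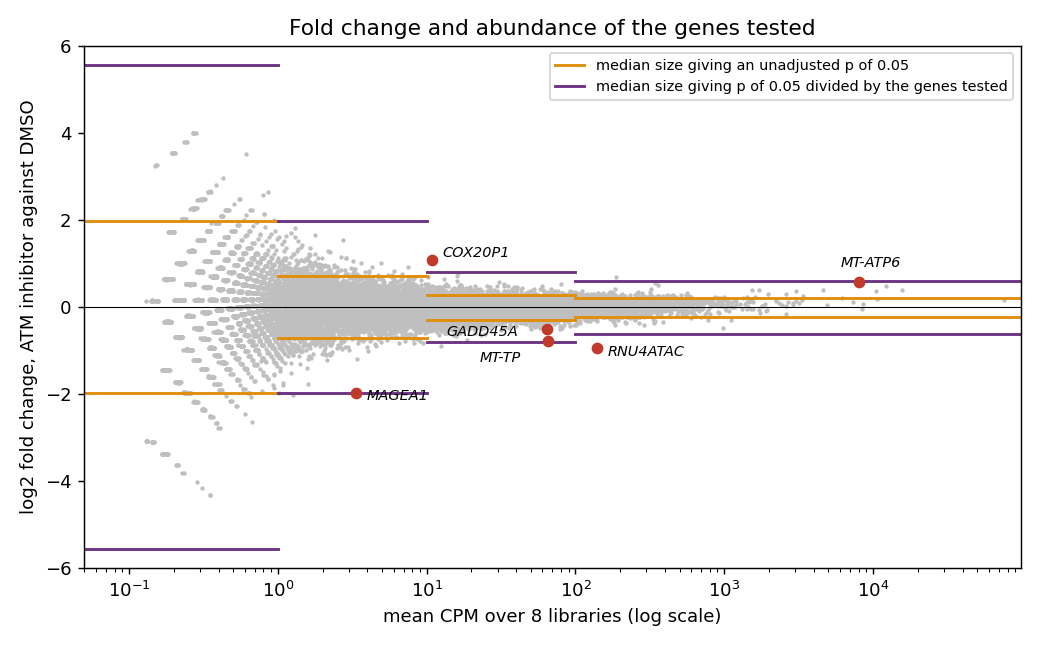
Log2 fold change of each gene tested, ATM inhibitor against DMSO, plotted against its mean CPM over the 8 libraries (log axis). Lines give, for 4 abundance classes, the median size that would give an unadjusted p of 0.05 (orange, 0.22 at 100 CPM or more) and 0.05 divided by the genes tested (purple, 0.61); 6 named genes are in red, with RNU4ATAC at -0.95.

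ATM itself had 56.8, 58.9, 77.0 and 61.5 CPM in libraries 18 to 21 and 69.7, 81.0, 56.8 and 58.1 CPM in libraries 22 to 25. The arms overlapped, and the log2 fold change was -0.06 (SE 0.13, 95% interval -0.32 to 0.19, adjusted p = 0.977).

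RNU4ATAC, the gene of the U4atac small nuclear RNA, fell with the inhibitor. This RNA pairs with U6atac in the minor spliceosome, which removes the rare U12-type introns. The gene is annotated at chr2:121530881-121531007 on the plus strand in GENCODE 29 (GRCh38), within the bounds of CLASP1, a microtubule regulator gene on the opposite strand. The 127 bases of the annotated RNA are printed because this is the one transcript that passed the test, with the stretch aatttttg, of the form that Sm proteins bind, in capitals.

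RNU4ATAC: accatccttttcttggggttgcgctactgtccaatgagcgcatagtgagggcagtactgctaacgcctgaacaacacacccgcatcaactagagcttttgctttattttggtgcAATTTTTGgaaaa

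RNU4ATAC had 109, 87.0, 64.0 and 121 CPM in ATM inhibitor libraries 18 to 21 and 171, 229, 166 and 173 CPM in DMSO libraries 22 to 25. Every inhibitor library lay below every DMSO library, with library 20 lowest and library 23 highest. On the log2 scale the difference was -0.95 (SE 0.14, 95% interval -1.23 to -0.67), with an adjusted p of 0.00196 by the edgeR test. The values rest on 193 to 811 counts a library. CLASP1 gave 33.3 CPM in both arms (log2 fold change 0.00, SE 0.13), and a same-strand gene that spans RNU4ATAC, AC012447.1, had 0 counts in all 8 libraries.

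The log2 fold change of RNU4ATAC ran from -0.80 to -1.88 over the 18 alternative fits. Because every inhibitor library lay below every DMSO library, leaving one out could not turn its sign. The lowest value came from the fit with all 8 libraries labelled HEK293T DMSO. Scaled by library totals, the libraries added there had 293 to 617 CPM. The adjusted p was under 0.05 in 13 of the 18 fits. It was 0.0646 without library 19 and 0.0925 without library 23, and it was 1, 0.527 and 0.771 in the fits that brought in libraries from outside the experiment. With the U2OS signal as a covariate the log2 fold change was -0.91 (adjusted p = 8.09e-06). The QuantSeq kit primes on runs of A, and the annotated RNA, which has no poly(A) tail, holds no run of A longer than the 4 at its end. How these counts relate to the amount of U4atac RNA was not tested.

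The RNU4ATAC count varied far more over the series than between these arms. Scaled by library totals, it ran from 61.6 to 127 CPM in the ATM inhibitor libraries and from 172 to 232 CPM in the DMSO libraries. It ran from 28.8 to 131 CPM over the 8 U2OS libraries 26 to 33, a 4.53-fold range, and from 293 to 1149 CPM in the 16 libraries numbered 1 to 17.

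Of 18 genes of minor spliceosome proteins, all tested, 0 had an unadjusted p under 0.05 in either direction, beside 5.53% of all genes. Of the 18 intervals 15 lay within ±0.5, beside 76.4% of all genes at 10 to 100 CPM and 94.4% at 100 CPM or more. The median log2 fold change was 0.08, beside 0.00 over all genes. ZRSR2, which recognises the 3′ splice site of U12-type introns, had 0.19 (SE 0.17), SNRNP25, of the U11/U12 particle, 0.16 (SE 0.14), and RNPC3, which bridges U11 and U12, 0.02 (SE 0.12). The partner RNA U6atac (RNU6ATAC) had a mean of 0.223 and 0.281 CPM, under the floor, and gave no usable value. Genes with U12-type introns were not analysed here.

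Among 43 listed RNAs of the spliceosome and other short noncoding RNAs, 11 could be tested and 3 had a mean of at least 10 CPM. RNU5F-1, a variant U5 gene, had 9.32, 11.2, 9.95 and 18.6 CPM with the inhibitor and 16.1, 19.2, 18.9 and 14.6 CPM with DMSO. The arms overlapped through library 21, and the log2 fold change of -0.50 (SE 0.20) had an unadjusted p of 0.0149 and an adjusted p of 0.851. SNHG1, a host gene of small nucleolar RNAs, had a log2 fold change of -0.30 (SE 0.11, adjusted p = 0.851) with arms that did not overlap.

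COX20P1 had the largest difference above 0 among the genes named by rule, and whether it passed depended on the test. It passed both cutoffs by edgeR's likelihood ratio test (adjusted p = 0.0186), the test the study used, without a filter on low counts (0.00209) and without library 21 (0.000587), but not in the fit reported here. It is a processed pseudogene of COX20, which encodes an assembly factor of cytochrome c oxidase. It had 14.96, 17.2, 18.3 and 8.18 CPM in libraries 18 to 21 and 5.18, 6.77, 7.97 and 7.74 CPM in libraries 22 to 25. The arms did not overlap, but library 21 was only just above the highest DMSO library. This gave a log2 fold change of 1.07 (SE 0.23, 95% interval 0.61 to 1.54, adjusted p = 0.193), on 18 to 55 counts a library.

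COX20P1 and COX20 are hard to tell apart. Over 357 aligned bases of the annotated transcripts 351 were identical (98.3%), and the longest shared run was 181 bases. A stretch of 80 bases with 3 of the 6 differences, in capitals, is printed to show how close the copies are, from chr10:68632551-68632630 (plus strand, GRCh38) and from bases 574 to 653 of the COX20 transcript.

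COX20P1: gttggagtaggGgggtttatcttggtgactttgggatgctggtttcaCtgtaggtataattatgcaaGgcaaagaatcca

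COX20: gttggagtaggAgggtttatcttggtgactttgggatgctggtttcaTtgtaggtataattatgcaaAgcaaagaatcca

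COX20 itself had 80.2, 67.2, 72.0 and 65.7 CPM with the inhibitor and 65.6, 59.3, 61.4 and 62.5 CPM with DMSO. The arms did not overlap, and libraries 21 and 22 were nearly equal. The log2 fold change was 0.20 (SE 0.11, 95% interval -0.02 to 0.42, adjusted p = 0.904). How the authors' counting assigned reads that fit both copies is not given in the sources used here, so the value of COX20P1 is uncertain.

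MAGEA1, a cancer-testis antigen gene of the X chromosome, was low in all 8 libraries. It had 1.13, 1.91, 0.664 and 1.64 CPM with the inhibitor, on 2 to 6 counts, and 9.79, 4.80, 3.63 and 3.27 CPM with DMSO, on 11 to 34 counts. The arms did not overlap, and library 22 was the highest. This gave a log2 fold change of -1.97 (SE 0.46, 95% interval -2.91 to -1.03, adjusted p = 0.193). MAGEA1 passed both cutoffs by edgeR's likelihood ratio test (adjusted p = 0.0186), which called COX20P1 as the only other gene, without a filter (0.00127) and without library 21 (0.0186).

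MAGEA1 was far higher in the U2OS libraries of the CPT experiment, with 105 to 161 CPM scaled by library totals, and its relative MAGEA12 was among the 18 genes high in U2OS. Library 22, with the most MAGEA1, also had the highest level of those 18 genes, whereas library 21 had nearly the same level of them and 1.64 CPM of MAGEA1. With that level as a covariate the log2 fold change of MAGEA1 was -1.65 (adjusted p = 0.227). Of 15 MAGE genes tested MAGEA1 alone had an unadjusted p under 0.05 (6.67%, beside 5.53% of all genes). MAGEA4 had -0.57 (SE 0.28, adjusted p = 0.894). The median over the family was -0.05.

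**Figure D3:**
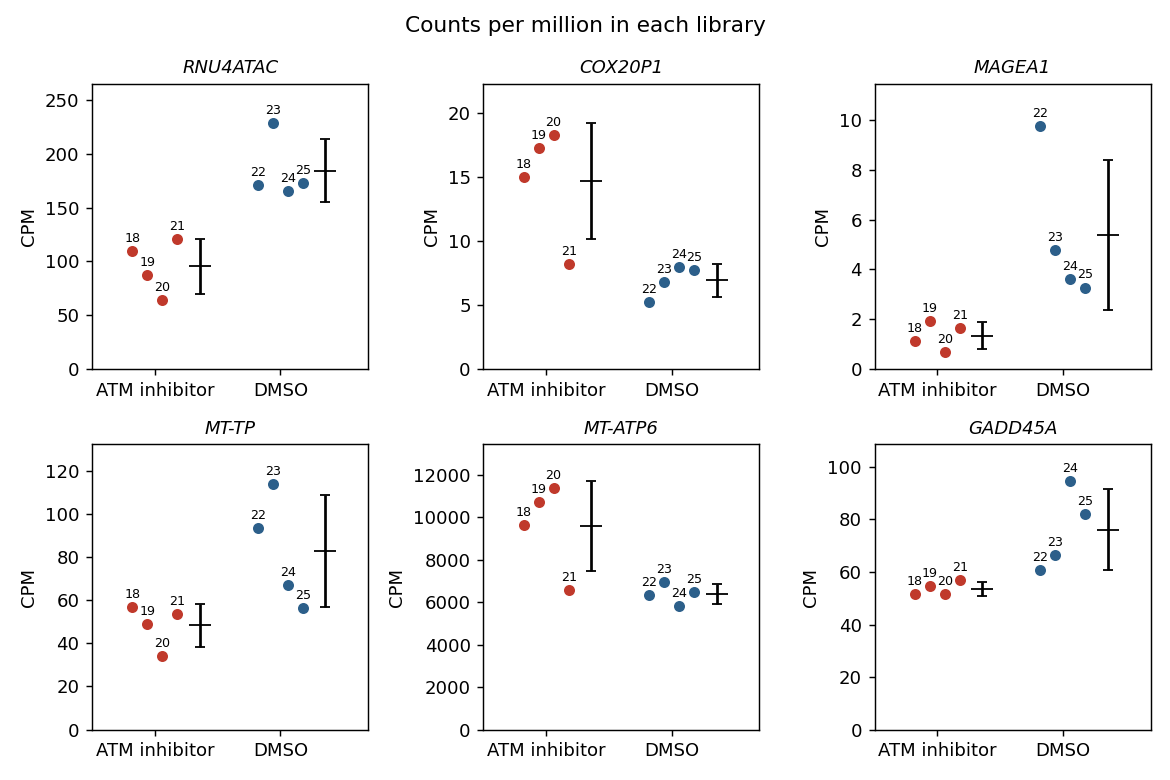
CPM of 6 genes in each library, with library numbers at the points; red marks the ATM inhibitor, blue DMSO, and black bars the mean and SD of 4 libraries. RNU4ATAC is lower in all 4 inhibitor libraries (64.0 to 121) than in any DMSO library (166 to 229), and library 21 stands with the DMSO libraries for MT-ATP6.

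Transcripts of oxidative phosphorylation lay slightly to one side. Mitochondrial DNA encodes 13 proteins of the respiratory chain, 22 tRNAs and 2 rRNAs, cut from long transcripts of either strand, and the nucleus encodes the other subunits. Of the 13 mitochondrial mRNAs 7 had an unadjusted p under 0.05 above 0 and 1 below 0. Of 36 nuclear subunits tested 10 had an unadjusted p under 0.05, all above 0, and 30 had a log2 fold change above 0. Among all genes at 10 CPM or more 6.46% had an unadjusted p under 0.05. None of these genes had an adjusted p under 0.05.

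Among the mitochondrial mRNAs, MT-ATP6, a subunit of ATP synthase, had 9638, 10723, 11377 and 6576 CPM in libraries 18 to 21 and 6328, 6968, 5829 and 6490 CPM in libraries 22 to 25. Library 21 lay among the DMSO libraries. The log2 fold change was 0.58 (SE 0.13, 95% interval 0.31 to 0.85, adjusted p = 0.366). MT-CYB, the cytochrome b of complex III, had 0.48 (SE 0.15) and MT-ND4, of complex I, 0.40 (SE 0.12).

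The mean level of the 13 mitochondrial mRNAs, given as log2 CPM relative to the mean of the 8 libraries, was 0.06, 0.25, 0.31 and -0.14 in libraries 18 to 21 and -0.10, 0.05, -0.26 and -0.16 in libraries 22 to 25. The arms overlapped through libraries 21 and 23. The median log2 fold change was 0.23, and it was -0.12 when all 8 libraries labelled HEK293T DMSO served as controls. The rRNAs MT-RNR1 and MT-RNR2 had 0.06 (SE 0.11) and 0.17 (SE 0.13).

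MT-ND6, the only mitochondrial mRNA on the minus strand, was the one with a value below 0, at -0.33 (SE 0.14, adjusted p = 0.878). The 12 mRNAs of the plus strand all had values above 0, from 0.10 to 0.58 with a median of 0.30. The strand did not divide the tRNAs in this way. All 12 tRNAs tested on the plus strand had values below 0 (median -0.40), as had 6 of 7 on the minus strand (median -0.53).

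The mitochondrial tRNAs were grouped after their values had been seen, and their counts are a description. Of 19 tested, 7 had an unadjusted p under 0.05 and all 7 were below 0 (36.8%, beside 5.53% of all genes), and the median of the 19 was -0.41. It was -0.21 without library 23, -0.21 with library 17 among the controls and -0.13 with all 8 libraries labelled HEK293T DMSO. Only 1, MT-TC, had a value above 0. MT-TP, the tRNA for proline, stood out and is printed from GENCODE 29 (chrM:15956-16023, minus strand) with its anticodon in capitals.

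MT-TP: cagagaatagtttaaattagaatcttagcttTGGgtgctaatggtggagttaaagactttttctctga

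MT-TP had 56.8, 48.7, 34.2 and 53.6 CPM with the inhibitor and 93.3, 114, 67.2 and 56.6 CPM with DMSO. The arms overlapped only in that library 18 exceeded library 25. The log2 fold change was -0.77 (SE 0.16, 95% interval -1.10 to -0.44, adjusted p = 0.193). MT-TL1, a leucine tRNA, had 843, 832, 621 and 1002 CPM against 1190, 1455, 1026 and 896 CPM, and a log2 fold change of -0.47 (SE 0.13, adjusted p = 0.753).

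Library 23 was highest and library 20 lowest for both MT-TP and MT-TL1, as for RNU4ATAC. Mature tRNAs, like U4atac, carry no long poly(A) tail, so the limit on what a QuantSeq count measures is the same. Mitochondrial tRNAs together took 0.161% to 0.250% of the counts with the inhibitor and 0.234% to 0.343% with DMSO. All mitochondrial genes together took 15.7% to 19.6% and 14.4% to 17.4%.

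For the nuclear subunits the 4 libraries of the arms did not overlap, though the shift was small. The mean level over 36 genes was 0.08, 0.11, 0.01 and 0.03 in libraries 18 to 21 and -0.01, -0.14, -0.03 and -0.06 in libraries 22 to 25. The difference of 0.12 on the log2 scale compares with SDs of 0.04 and 0.06 among libraries. The median log2 fold change was 0.11, from -0.01 to 0.14 over the alternative fits, with the lowest where library 17 was added to the controls.

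The arms did not overlap for 7 of the 36 subunits, or 19.4%, beside 2.89% of all genes at 10 CPM or more. NDUFA1, an accessory subunit of complex I, had 476, 537, 523 and 439 CPM with the inhibitor and 421, 355, 409 and 437 CPM with DMSO. Its log2 fold change was 0.28 (SE 0.10, adjusted p = 0.851). UQCRQ of complex III had 0.30 (SE 0.11), COX6B1 of complex IV 0.27 (SE 0.10) and ATP5PO of ATP synthase 0.25 (SE 0.10).

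**Figure D4:**
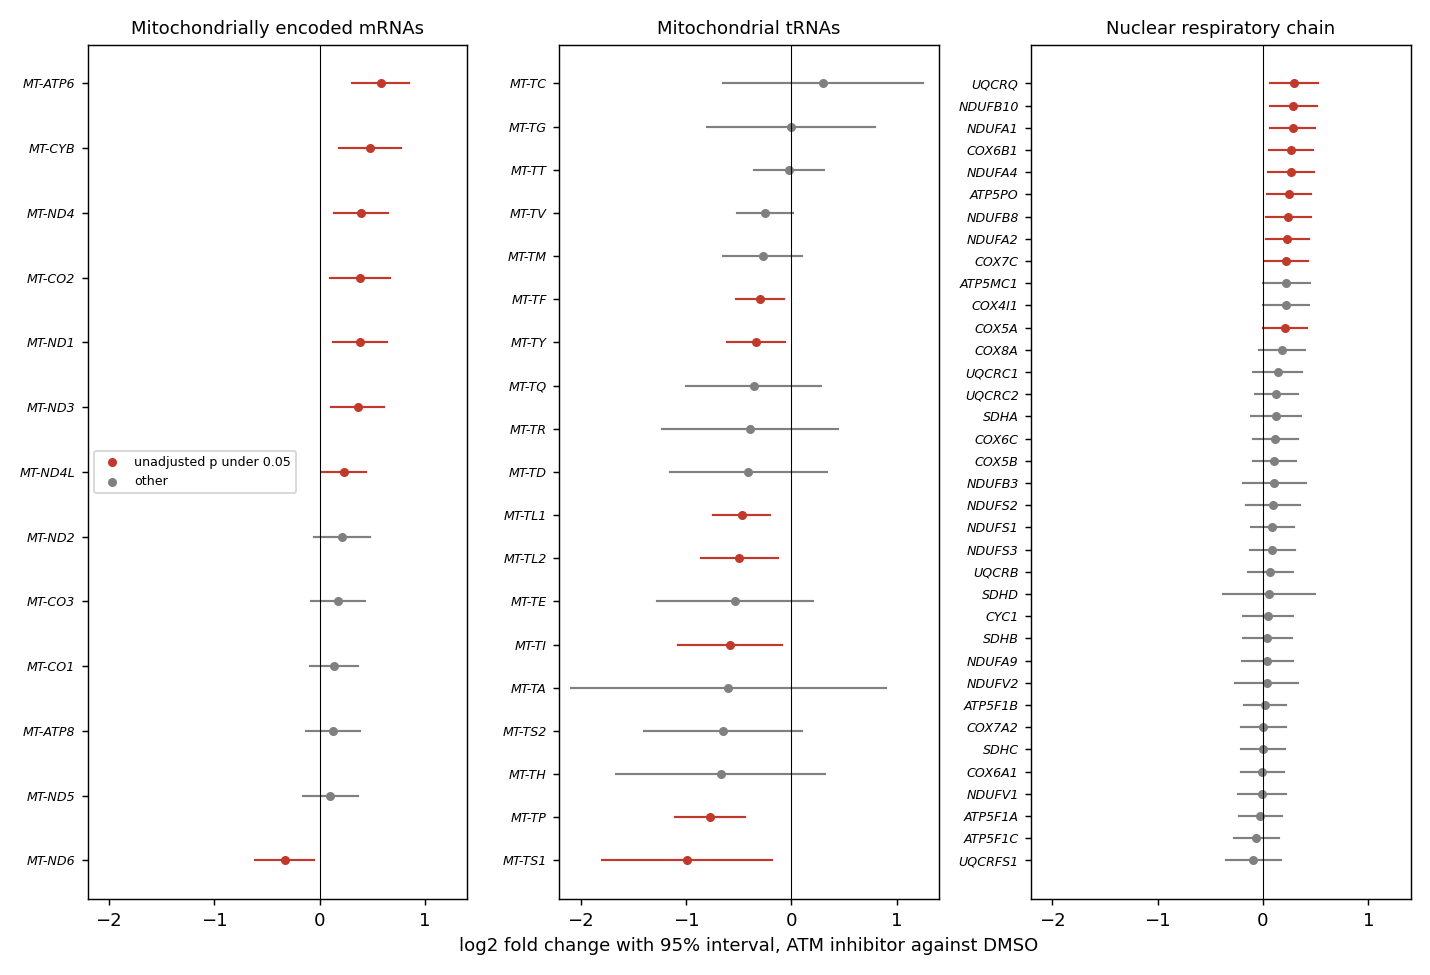
Log2 fold change, ATM inhibitor against DMSO, with its 95% interval for each mitochondrial mRNA, mitochondrial tRNA and nuclear respiratory chain gene tested; red marks an unadjusted p under 0.05. Of 13 mitochondrial mRNAs 12 lie above 0, of 19 tRNAs 18 lie below 0, and of 36 nuclear genes 30 lie above 0.

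Genes of the ATM pathway showed no shared shift. The list held 30 genes, from the MRN complex that activates ATM to its partner kinases and substrates. Of the 30, 1 had an unadjusted p under 0.05 above 0 and 1 below 0 (6.67%, beside 5.53% of all genes). The median was 0.00, and all 30 intervals lay within ±1, as did 99.7% of all genes at 10 to 100 CPM. TTI1, which stabilises ATM and related kinases, had 0.47 (SE 0.15, adjusted p = 0.766) and H2AFX, the gene of histone H2AX, -0.47 (SE 0.15, adjusted p = 0.766). ATR had 0.08 (SE 0.12).

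Of 30 p53 target genes 25 had a value below 0, and the median was -0.16. An unadjusted p under 0.05 was found for 5, all below 0, or 16.7%, beside 5.53% of all genes in either direction. Among genes at 10 CPM or more that share was 6.46%. Without library 24 alone the median was -0.06. GADD45A, a stress sensor that slows the cell cycle, had 51.7, 54.5, 51.4 and 56.9 CPM with the inhibitor and 60.7, 66.6, 94.7 and 82.2 CPM with DMSO, so that the arms did not overlap. Its log2 fold change was -0.51 (SE 0.12, 95% interval -0.76 to -0.25, adjusted p = 0.690). PMAIP1, the proapoptotic NOXA, had 217, 184, 167 and 195 CPM against 239, 241, 260 and 239 CPM, with -0.36 (SE 0.10, adjusted p = 0.753).

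BBC3, the proapoptotic PUMA, had -0.24 (SE 0.10, adjusted p = 0.878). CDKN1A, the CDK inhibitor p21, had -0.07 (SE 0.17), and MDM2, the ligase that degrades p53, -0.11 (SE 0.13). The level of the list differed more among the DMSO libraries than between the means of the arms. It was -0.11 and -0.17 in libraries 22 and 23 and 0.33 and 0.26 in libraries 24 and 25, and it ran from -0.17 to 0.01 with the inhibitor.

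Cell cycle genes differed by little. Of 30 G2/M genes 4 had an unadjusted p under 0.05, all above 0 (13.3%). That share was 5.53% over all genes and 6.46% over those at 10 CPM or more. A value above 0 was found for 22 of the 30, with a median of 0.05. The level of the list did not overlap between the arms, at 0.01 to 0.06 with the inhibitor and -0.05 to -0.01 with DMSO. MKI67, a marker of dividing cells, had 0.33 (SE 0.12), HMMR, a spindle factor, 0.31 (SE 0.11), PLK1 0.26 (SE 0.11) and AURKA, a mitotic kinase like PLK1, 0.24 (SE 0.11).

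Of 30 S phase genes 3 had an unadjusted p under 0.05, all below 0 (10%, beside 6.46% at 10 CPM or more). The median was -0.01. E2F1, which drives entry into S phase, had 29.9, 27.4, 31.2 and 36.3 CPM with the inhibitor and 41.2, 38.7, 38.2 and 38.7 CPM with DMSO, and a log2 fold change of -0.33 (SE 0.13, adjusted p = 0.851). Of 32 histone genes tested 13 were bounded within ±1, and 8 had a mean of at least 10 CPM. The median was -0.20, although the mean level of the 8 genes at 10 CPM or more was higher with the inhibitor by 0.07. Of the 32 genes 1 above 0 and 2 below 0 had an unadjusted p under 0.05 (9.38%, beside 5.53% of all genes).

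Chaperone genes lay on either side of 0. Of 35 HSF1 targets and cytosolic chaperones 3 had an unadjusted p under 0.05 above 0 and 2 below 0. This made 14.3%, beside 5.53% of all genes. The median was 0.05, and 31 intervals lay within ±1, beside 66.1% of all genes. HSP90AA1, the inducible HSP90, had 3868, 3405, 3690 and 2667 CPM with the inhibitor and 2506, 2504, 2487 and 3057 CPM with DMSO. Library 21 was again near the DMSO libraries, and library 25 was apart from the other DMSO libraries. The log2 fold change was 0.37 (SE 0.12, adjusted p = 0.785).

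CACYBP, a cochaperone, had 0.21 (SE 0.10) and SERPINH1, the collagen chaperone HSP47, -0.33 (SE 0.12), both without overlap of the arms. HSPA8, the constitutive HSP70, had -0.08 (SE 0.12), DNAJB1 0.24 (SE 0.13) and HSPB1 -0.05 (SE 0.11). The inducible HSPA1A was at 2.32 to 6.54 CPM with the inhibitor and 3.57 to 10.08 CPM with DMSO, highest in library 22. Its value of -0.73 (SE 0.35) had an interval from -1.43 to -0.02, and without library 22 it was -0.35. All 14 subunits of TRiC and prefoldin, which fold actin and tubulin, had intervals within ±0.5, with a median of 0.04. Such intervals were found for 76.4% of all genes at 10 to 100 CPM and 94.4% at 100 CPM or more.

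Of 25 genes of the unfolded protein response 1 had an unadjusted p under 0.05, below 0 (4%, beside 5.53% of all genes). HSPA5, the chaperone BiP, had 0.06 (SE 0.10). The list's median was -0.04. Proteasome subunits had a median of 0.07, with 25 of 31 above 0 and levels that did not overlap between the arms (difference 0.07). PSMA4 and PSMB7 had 0.32 (SE 0.12) and 0.31 (SE 0.13), while the lowest value among the subunits was -0.33. At an unadjusted p under 0.05 there were 2 subunits above 0 and 1 below 0 (9.68%, beside 5.53% of all genes). Of 29 genes of autophagy and the lysosome 1 had an unadjusted p under 0.05 (3.45%), and the median was 0.00.

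Transcripts of the proteins that aggregated had bounds close to those of abundant genes in general. The list used here held 38 genes of proteins that were more insoluble in SDS after ATM inhibition of the same cells, so it is not independent of the experiment. Of the 37 with a tested transcript 1 had an unadjusted p under 0.05 (2.7%, beside 5.53% of all genes), ZC3H11A at -0.22 (SE 0.11). All 37 intervals lay within ±1 and 35 within ±0.5. Over all genes at 100 CPM or more these shares were 99.9% and 94.4%, and at 10 to 100 CPM 99.7% and 76.4%. The median was 0.05, from -0.06 to 0.07 over the alternative fits.

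The integrated stress response divided the ATM inhibitor libraries. ATF4 is the transcription factor that this pathway induces, and its targets make and import amino acids. The level of 23 targets was 0.26 and 0.19 in libraries 18 and 19 and -0.39 and -0.38 in libraries 20 and 21, while the DMSO libraries lay between -0.07 and 0.17. ATF4 itself had 1489, 1129, 684 and 605 CPM with the inhibitor and 820, 880, 808 and 875 CPM with DMSO. ASNS, which makes asparagine, had 545, 453, 228 and 198 CPM with the inhibitor and 336, 367, 251 and 248 CPM with DMSO.

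The mean thus hid a spread within 1 arm that exceeded the range of the other. The log2 fold changes of ATF4 and ASNS were 0.21 (SE 0.17) and 0.25 (SE 0.19). Of 26 targets tested 6 had an unadjusted p under 0.05, all below 0 (23.1%). That share was 5.53% over all genes and 6.46% over those at 10 CPM or more. The median of the list was -0.16. Without library 20 that median was -0.01 and without library 18 it was -0.28. Without library 18 the values of ATF4 and ASNS were -0.07 and -0.04. ATF3, a stress-induced repressor, had -0.50 (SE 0.14), CEBPG, a partner of ATF4, -0.37 (SE 0.11), and STC2, a secreted glycoprotein, -0.32 (SE 0.10), the last 2 without overlap of the arms.

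Ribosomal protein genes divided the same libraries. Of 79 tested 66 had a value above 0, with a median of 0.11. An unadjusted p under 0.05 was found for 3 above 0 and 1 below 0 (5.06%, beside 5.53% of all genes). The level was 0.20 and 0.16 in libraries 18 and 19, -0.04 and -0.17 in libraries 20 and 21, and -0.10 to 0.01 with DMSO. RPL26 had 0.39 (SE 0.16), RPS27A 0.30 (SE 0.13), RPS12 0.30 (SE 0.13) and RPL41 -0.30 (SE 0.11). MYC, which drives ribosome synthesis, had -0.43 (SE 0.14, adjusted p = 0.766). In library 21 it had 104 CPM, among the DMSO libraries (87.5 to 120 CPM). The list of ribosome biogenesis genes had a median of 0.01.

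Among the other pathways, FOXO targets, which PI3K and AKT signalling holds down, had a median of -0.09. Of the 20 genes 5 had an unadjusted p under 0.05, all below 0 (25%). That share was 5.53% over all genes and 6.46% over those at 10 CPM or more. PIK3CA had 20.6, 18.8, 15.9 and 19.3 CPM with the inhibitor and 28.2, 24.6, 26.6 and 22.6 CPM with DMSO, with -0.45 (SE 0.15, adjusted p = 0.797). SESN3 had -0.22 (SE 0.10) and BCL6, a repressor, -0.41 (SE 0.19). Immediate early genes had 3 of 23 with an unadjusted p under 0.05, all below 0 (13%, beside 5.53% of all genes). Their median was -0.20, with JUN at -0.36 (SE 0.14) and JUND at -0.49 (SE 0.15). Library 21 lay among the DMSO libraries for both of these genes.

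NRF2 targets, of the antioxidant response, had 3 of 22 with an unadjusted p under 0.05, all above 0 (13.6%), and a median of 0.05. Genes of cholesterol synthesis had 1 of 24 past that p, above 0 (4.17%), and a median of 0.09. Interferon and NF-kB genes had 2 of 20, above 0 (10%), and a median of 0.18. Glycolysis and hypoxia genes had 2 of 27 above 0 and 1 below 0 at that p (11.1%), with a median of 0.04. These shares stand beside 5.53% of all genes. Of the 8 U2OS markers 0 had an unadjusted p under 0.05 (median -0.43, but -0.08 without library 22), and of the 6 HEK293T markers 1, CDH2 at -0.28 (SE 0.11).

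Over the 26 lists other than the cell line markers and mitochondrial tRNAs, the levels of 5 did not overlap between the arms. These were G2/M genes, proteasome subunits, nuclear respiratory chain genes, COX20 with its pseudogene, and short noncoding RNAs. The last 2 rest on 2 and 3 genes, most of them given above as not overlapping, so these lists repeat single-gene results. The other differences were 0.07 to 0.12. Among single genes at 10 CPM or more the arms did not overlap for 2.89%. The medians of the lists were small beside the choice of scaling and of controls. Scaling by library totals alone, without TMM, moved the median over all genes to -0.06 and turned the sign of 8 of 29 list medians, among them G2/M genes (-0.01), HSF1 targets and chaperones (-0.01), TRiC and prefoldin (-0.02), NRF2 targets (-0.01) and the aggregating proteins (-0.01). Nuclear respiratory chain genes had 0.05, proteasome subunits 0.01 and ribosomal proteins 0.05 under it. With all 8 libraries labelled HEK293T DMSO as controls, 3 of them with U2OS marker levels, 14 medians turned, among them ATF4 targets (0.34), G2/M genes (-0.18) and proteasome subunits (-0.14). With library 17 added to the controls 10 turned, among them ribosomal proteins (-0.02), proteasome subunits (-0.03) and nuclear respiratory chain genes (-0.01). Without library 18 the median of the ribosomal proteins was 0.04. Of the 674 genes of the lists, which were chosen with earlier results known, 79 or 11.7% had an unadjusted p under 0.05. That share was 5.53% over all genes and 6.46% over those at 10 CPM or more. Of the 674, 606 (89.9%) were bounded within ±1 and 478 (70.9%) within ±0.5, beside 66.1% and 42.2% of all genes.

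**Figure D5:**
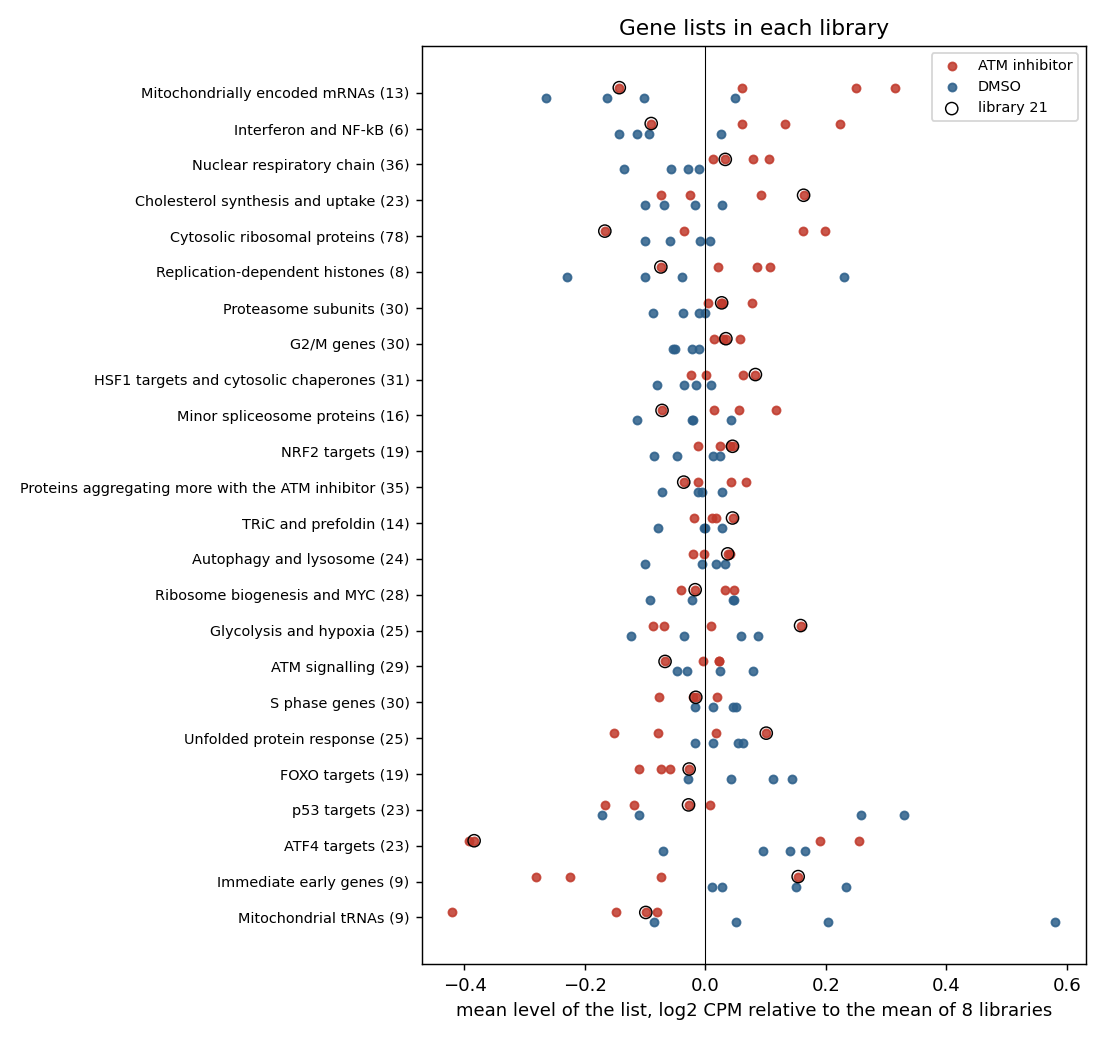
Mean level of each gene list in each library, as log2 CPM relative to the mean of the 8 libraries over the list's genes at 10 CPM or more (number in brackets); red is the ATM inhibitor, blue DMSO, and black rings mark library 21. Nuclear respiratory chain genes separate (difference 0.12), while ATF4 targets spread from -0.39 to 0.26 within the inhibitor arm.

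The remaining genes named by rule had the smallest p-values on either side, and none had an adjusted p under 0.05. Above 0 they were RPS27AP12 (0.77, SE 0.18), MRPL40 (0.50, SE 0.12), GPR89B (0.92, SE 0.24), MLYCD (0.70, SE 0.18), FAM229B (0.53, SE 0.14), UCP2 (0.49, SE 0.13), EMC10 (0.42, SE 0.11), RND2 (0.58, SE 0.16), HINT2 (0.41, SE 0.12) and SLIRP (0.36, SE 0.10). Of the products, MRPL40 is a mitochondrial ribosomal protein, SLIRP binds mitochondrial mRNAs, UCP2 is a carrier of the inner membrane, and MLYCD removes malonyl-CoA. RPS27AP12 is a pseudogene 94.6% identical to RPS27A over 465 aligned bases. GPR89B is 99.6% identical to GPR89A, which had 0.04 (SE 0.20), so both values are uncertain in how reads were divided.

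Below 0 they were AL591895.1 (-0.53, SE 0.13), RNF166 (-0.62, SE 0.16), PDIK1L (-0.66, SE 0.18), TMEM267 (-0.54, SE 0.16), PAN2 (-0.60, SE 0.17) and CDC42SE1 (-0.40, SE 0.12), beside RNU4ATAC, MT-TP, MT-TL1, GADD45A, ATF3 and PMAIP1. PAN2 is the catalytic subunit of a deadenylase that shortens poly(A) tails, and CDC42SE1 binds the GTPase CDC42. AL591895.1 is an antisense gene, and whether the counting used strand is not given in the sources used here beyond the forward kit.

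The same procedure found many changes in the U2OS libraries of the series, at nearly the same precision. With CPT against DMSO in U2OS cells 2569 of 19080 genes passed both cutoffs, or 13.5%, with a median SE of 0.115 at 100 CPM or more and 0.153 at 10 to 100 CPM. GADD45A had 2.33 in U2OS with CPT (adjusted p = 1.92e-15) and -0.51 in HEK293T with the inhibitor, and the difference of the responses was 2.85 (adjusted p = 1.63e-16). For MDM2 the difference was 2.12 (adjusted p = 1.6e-13) and for ATF3 2.88 (adjusted p = 2.78e-13).

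For COX20P1 the responses lay on opposite sides, at -1.67 with CPT in U2OS and 1.07 here, with a difference of -2.74 (adjusted p = 5.61e-06). RNU4ATAC had -0.28 (adjusted p = 0.416) in U2OS, and the difference of 0.68 had an adjusted p of 0.131. The responses differed by more than 1 on the log2 scale, with an adjusted p under 0.05, for 1599 of 21441 genes, or 7.46%. Cell line and treatment differ at once in this contrast and cannot be told apart.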

How the data were processed

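The authors isolated total RNA, made QuantSeq 3′ mRNA libraries (FWD, with UMIs) and counted reads per gene with the Lexogen QuantSeq UMI pipeline. The deposited values are raw counts per Ensembl gene, without normalization. The genome build, the annotation release and the handling of reads that fit several genes are not given in the sources used here. Of 60107 genes 56531 matched GENCODE 29 (GRCh38), which supplied symbols, positions and sequences. The pipeline's 5 summary rows and 92 spike-in rows (at most 1 count a library) were left out of library sizes and tests. Reads on no feature were 23.6% to 32.5% of the total over all rows, the summary and spike-in rows included. Groups came from the labels and library numbers.

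Genes above 1 count in 2 or more libraries were kept, and their counts were fitted by the edgeR quasi-likelihood method (version 4.0.16, R 4.3.3, TMM scaling), with Benjamini-Hochberg adjusted p-values. The study used edgeR's likelihood ratio test, an alternative here. Each SE was taken from the fitted weights and the quasi-likelihood dispersion, and intervals are 95%. List levels are means of log2 CPM (prior count 2) over members at a mean of at least 10 CPM. The steps were tested on simulated data.

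Named genes were those with an adjusted p under 0.05, the 12 with the smallest p on each side at a log2 CPM over 3, and ATM, RNU4ATAC, MAGEA1 and COX20P1; list members were named for illustration. Members and lists were chosen with earlier results of these data known. Alternatives were each library left out, other DMSO controls, one fit over the whole series, scaling by RLE, filtering by filterByExpr or not at all, DESeq2 1.42.0, the likelihood ratio test, and 2 chosen after seeing the data: library totals alone and the U2OS signal as a covariate. All columns were used (0 left out).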

Additional observations from a re-analysis of the deposited data

Results flagged for a closer look

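Among 232 groups of 4 libraries checked for one that stands apart by Dixon's test, 12 were found, and 11.6 would be found by chance alone. In the DMSO arm library 23 was apart for RNU4ATAC (228.8 CPM, others 166 to 172.7), MT-TF (1439.9, others 1145.4 to 1175.1) and MT-TL2 (26.24, others 15.48 to 16.98). DMSO library 24 was apart for PMAIP1 (260.3 CPM, others 239 to 240.7) and JUND (110.4, others 84.37 to 88.11). DMSO library 25 was apart for HSP90AA1 (3056.5 CPM, others 2487.2 to 2505.9) and RPS12 (1937.3, others 1683.4 to 1708.5).

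In the ATM inhibitor arm library 19 was apart for MT-RNR1 (9532.1 CPM, others 8424.3 to 8558.2), ATF3 (50.01, others 37.82 to 39.9) and SERPINH1 (60.52, others 84.42 to 88.97). Library 21 was apart for HSPA1A (6.542 CPM, others 2.323 to 2.823) and for the mean level of COX20 and its pseudogene (-0.132 on the log2 scale, others 0.394 to 0.485).

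The response to CPT in U2OS and that to the ATM inhibitor in HEK293T differed for 1599 genes past both cutoffs, by edgeR's quasi-likelihood test of the difference with Benjamini-Hochberg adjustment. At an adjusted p under 0.05 without the fold cutoff, 3309 of 21441 genes differed. Most of the 26 genes named by rule were chosen by a small p in the inhibitor comparison. That comparison is one side of the difference, so their count is not independent of it. Of the 26, 15 differed at that adjusted p. The log2 difference, CPT in U2OS minus the inhibitor in HEK293T, was above 0 for 9 of them: ATF3 (2.884), GADD45A (2.847), MAGEA1 (2.137), MT-TL1 (1.289), MT-TP (1.226), TMEM267 (0.903), PMAIP1 (0.764), RNF166 (0.732) and CDC42SE1 (0.544). It was below 0 for 6, namely COX20P1 (-2.742), RPS27AP12 (-1.134), HINT2 (-0.876), EMC10 (-0.754), MRPL40 (-0.748) and UCP2 (-0.606). Line and treatment cannot be told apart in these differences.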

How the results depend on the processing

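No paired analysis was possible because the arms share no replicate numbers in the labels. Genes past both cutoffs numbered 0 in the fit reported, 2 by the likelihood ratio test, 2 without a filter and 1 with library totals only, and 0 to 14 when a library was left out. Genes with an adjusted p under 0.05 numbered 1, against 5 by the likelihood ratio test, 16 without a filter, 0 with all libraries in one fit, 0 with all 8 libraries labelled HEK293T DMSO, 0 with library 17 among the controls, and 0 to 97 when a library was left out (97 without library 21, 0 without library 19 or 23). Genes with an unadjusted p under 0.05 numbered 1019, against 519 by DESeq2, 400 with all libraries in one fit, 1758 with all 8 DMSO libraries and 751 to 1907 when a library was left out. In the other contrasts the filterByExpr filter gave 1652 genes for CPT in U2OS, and all libraries in one fit gave 689 for the difference of responses; leaving out a library gave 2411 to 2550 and 1450 to 1694.

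Among genes named by rule the sign turned for AL591895.1 (0.129) and EMC10 (-0.279) with all 8 DMSO libraries and for ATM (0.077 with library 17, 0.046 without library 23, and -0.167 to 0.046 when a library was left out), none with an adjusted p under 0.05. Of 87 genes recomputed, list members included, 18 turned with all 8 DMSO libraries, such as COX20 (-0.629), STC2 (0.462) and DNAJB1 (-0.502), 3 with library 17 and 7 without library 18. Without library 21 the adjusted p was 0.000587 for COX20P1, 0.000145 for MT-ATP6, 0.00739 for MT-TP and 0.0186 for MAGEA1. The cause was not tested. Depth limits genes below 10 CPM to large changes.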
